A study of Mus musculus with 2 samples.

Results

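T cells formed 180 of the 10088 lung cells that passed the limits on quality, out of 10901 barcodes in all. They were chosen by their own transcripts, counted as unique molecular identifiers (UMIs, 1 per captured RNA molecule). A cell entered with at least 2 UMIs of Cd3d, Cd3e, Cd3g and Trac together. It also had to have 0 UMIs of the B cell gene Cd79a, fewer than 3 of the complement genes C1qa, C1qb and C1qc, 0 of the dendritic cell genes Xcr1 and Fscn1, and fewer than 10 per 10000 of the alveolar macrophage genes Chil3, Ear1 and Krt79. Levels of these genes in the T cells follow from that choice and are given as a description.

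The cells came from lungs of female C57BL/6J mice in 3 pools of 8 mice, 1 pool per treatment. Mice of the tolerance pool inhaled ovalbumin (OVA) and then went through the asthma protocol. Mice of the asthma pool were sensitised intraperitoneally with OVA adsorbed to Alum and challenged with intranasal OVA, and mice of the control pool received Alum without OVA and intranasal saline. The sort was aimed at dendritic cells, taken as MHC-II high and CD11c high within a MerTK-, CD64- and Ly6C-negative population, and at alveolar macrophages. T cells were no target of it, so their number among the sorted cells also depends on the sort. Cells of each pool carried a hashtag antibody, equal numbers were mixed, and the mixture was loaded on 2 lanes, which are technical replicates of the same pools. With 1 pool per treatment no test between treatments was possible. Intervals are 95% exact intervals (Clopper-Pearson for shares of cells, Poisson for UMIs) and cover counting error only. For a count of 0, the limit given in the text is 3 counts.

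T cells recognise peptides on MHC molecules through a receptor of an alpha and a beta chain, or of a gamma and a delta chain, which signals through the CD3 chains. CD4 T cells read MHC class II and help or restrain other cells, and CD8 T cells read MHC class I and can kill. In allergic airways, CD4 T cells that carry the transcription factor GATA3 make the type 2 cytokines interleukin 4, 5 and 13, and FOXP3 marks regulatory T cells, which are known to limit such responses.

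The T cells held 261397 UMIs in the tolerance pool, 268356 in the asthma pool and 127992 in the control pool, with a median of 2490, 2847 and 2390 UMIs per cell. Their own pool's hashtag made up 98.0% of hashtag UMIs in T cells of the tolerance pool, 98.7% in the asthma pool and 99.0% in the control pool, and no barcode occurred in more than 1 of the 6 matrices. Neutrophil and mast cell or basophil genes were at 0 UMIs in all T cells for 5 of 5 genes on each list. Of 9 B cell genes, 5 had a UMI, with 191, 279 and 219 UMIs per 1000000 UMIs of T cells (CPM) summed over the list in the tolerance, asthma and control pools, and the defining B cell genes Ms4a1, Ebf1 and Pax5 were at 0. Of 12 alveolar macrophage genes, 10 had a UMI, with 639, 522 and 898 CPM in the same order, while Fabp1 and Atp6v0d2 were at 0. Of 10 natural killer (NK) cell genes, 8 had a UMI, with 796, 469.5 and 227 CPM, while Klra4 and Klra8 were at 0. Of 9 dendritic cell genes, 6 had a UMI, with 723, 1483 and 2399 CPM, while Xcr1 and Fscn1, which the rule excludes, and Clec9a were at 0.

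Near the threshold, 8 T cells had exactly 2 UMIs of the 4 receptor genes and 17 had 3, while 19 cells that met the other limits stayed outside with 1. The constant parts of the receptor beta chain, Trbc1 and Trbc2, were not used by the rule. A UMI of either was present in 6 of the 19 cells with 1 UMI (31.6%), in 7 of the 8 cells with 2 (87.5%) and in 17 of the 17 cells with 3. Over all T cells it was 171 of 180 (95.0%), against 2 of 514 B cells (0.389%) at a median depth of 2527 UMIs in T cells and 1948 in B cells. Of the T cells, 88 had Trbc2 alone, 13 Trbc1 alone, 70 both and 9 neither.

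On mm10, Cd3g (chromosome 9, 44969572 to 44980431), Cd3d (chromosome 9, 44981786 to 44987339) and Cd3e (chromosome 9, 44998740 to 45009627) are neighbours that encode CD3 chains, and Trac (chromosome 14, 54220521 to 54224206) encodes the constant part of the receptor alpha chain. Cd3g had 941, 622 and 508 CPM in T cells of the tolerance, asthma and control pools, Cd3d 696, 641 and 547, Cd3e 318, 339 and 305, and Trac 673, 518 and 367. Over all T cells, the tolerance pool was highest for Cd3d, Cd3g and Trac and the asthma pool for Cd3e. Cd3d was seen in 160 of 180 T cells (88.9%) and Trac in 131 (72.8%). The 2 beta chain genes were as abundant. Trbc2 had 1021, 906 and 1024 CPM and Trbc1 532, 514 and 625, so the pools differed little over all T cells.

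T cells fell into 2 sets by MHC class II transcripts, a split that was chosen after the values had been seen. H2-Aa, H2-Ab1 and H2-Eb1 encode class II chains and Cd74 the invariant chain, and resting mouse T cells are not known to make them. Together they had 0 to 4 UMIs in 152 T cells and 17 to 817 (median 392) in the other 28, with no cell between. The 28 cells were 6 of 76 in the tolerance pool (7.89%, 2.95 to 16.4), 13 of 68 in the asthma pool (19.1%, 10.6 to 30.5) and 9 of 36 in the control pool (25%, 12.1 to 42.2). They had a median of 8768 UMIs and 2774 genes per cell, against 2280 UMIs and 983 genes in the 152. Of T cell UMIs, the 28 held 68193 of 261397 in the tolerance pool and 118262 of 268356 in the asthma pool. In the control pool they held 67549 of 127992, so CPM over all T cells also depend on these 28 cells. Hashtag UMIs were also more numerous in them, with a median of 1836 against 970.0, as was the CLEC12A antibody tag, with 34.5 against 14.0. Cd209a or Mgl2, lectin genes of type 2 dendritic cells, had a UMI in 25 of the 28 (89.3%) and in 2 of the 152 (1.32%). Trbc1 or Trbc2 had a UMI in 26 of the 28 (92.9%) and in 145 of the 152 (95.4%). In the 152, Trbc2 had 1273 CPM in the tolerance pool, 1392 in the asthma pool and 1671 in the control pool. The 8 class II genes on the list summed to 8673 CPM in T cells of the tolerance pool, 20819 in the asthma pool and 29807 in the control pool. A barcode that holds a T cell and a dendritic cell, and a T cell that holds these RNAs itself, cannot be told apart in these counts. Scrublet, which scores each barcode against simulated mixtures of 2 cells, placed 6 of the 28 and 1 of the 152 in the top 2% of scores. The results that follow are for all 180 cells unless the 152 are named.

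**Figure D1:**
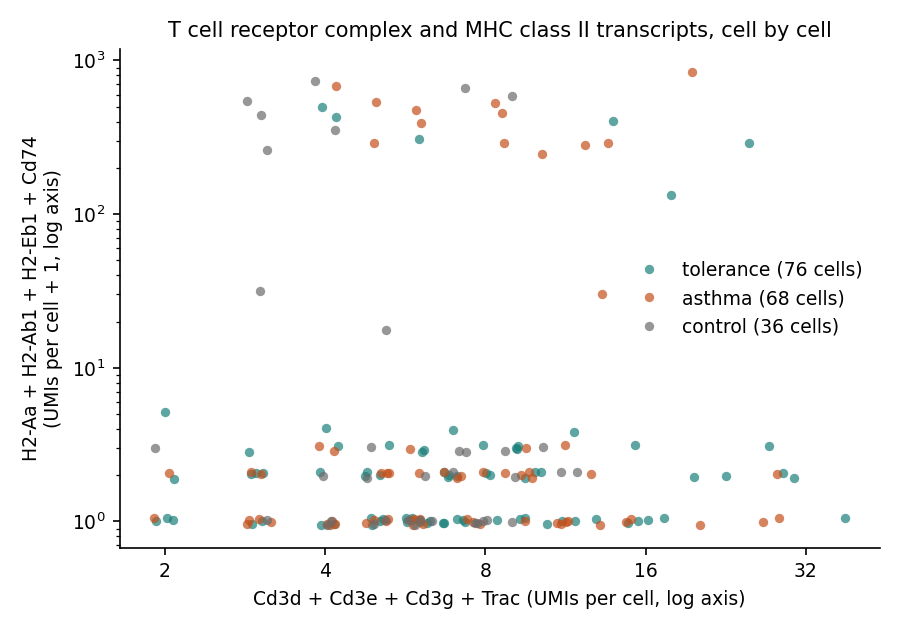
Each point is 1 of the 180 T cells, with UMIs of the 4 receptor genes used by the rule on the x axis and UMIs of 4 MHC class II genes plus 1 on the y axis (both log axes, points moved slightly so that they do not hide each other). The cells form a lower band of 152 cells with at most 4 class II UMIs and an upper band of 28 cells with 17 to 817, and cells of each pool are in both bands.

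T cells made up 76 of 2701 cells in the tolerance pool (2.81%, 2.22 to 3.51), 68 of 4025 in the asthma pool (1.69%, 1.31 to 2.14) and 36 of 3362 in the control pool (1.07%, 0.751 to 1.48). Only the interval of the tolerance pool stayed clear of both others. The order depended on the denominator. Alveolar macrophages made up 39.3% of cells in the tolerance pool, 49.7% in the asthma pool and 76.2% in the control pool. Among cells outside the alveolar macrophage gate, T cells were 4.63% (3.67 to 5.77) in the tolerance pool, 3.36% (2.62 to 4.24) in the asthma pool and 4.51% (3.18 to 6.18) in the control pool, and all 3 intervals overlapped. Of T and B cells together, T cells were 76 of 217 in the tolerance pool (35.0%, 28.7 to 41.8), 68 of 317 in the asthma pool (21.5%, 17.1 to 26.4) and 36 of 160 in the control pool (22.5%, 16.3 to 29.8). Without the 28 class II-rich cells this share was 33.2% (26.9 to 40.0), 18.1% (13.9 to 22.9) and 17.9% (12.1 to 24.9) in the same order. T cells thus stood highest against B cells in the tolerance pool, with an interval that overlapped that of the control pool for all T cells and lay clear of it for the 152. B cells were 5.22% of all cells in the tolerance pool, 6.19% in the asthma pool and 3.69% in the control pool. A difference in the sort between pools cannot be told apart from one in the lungs.

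**Figure D2:**
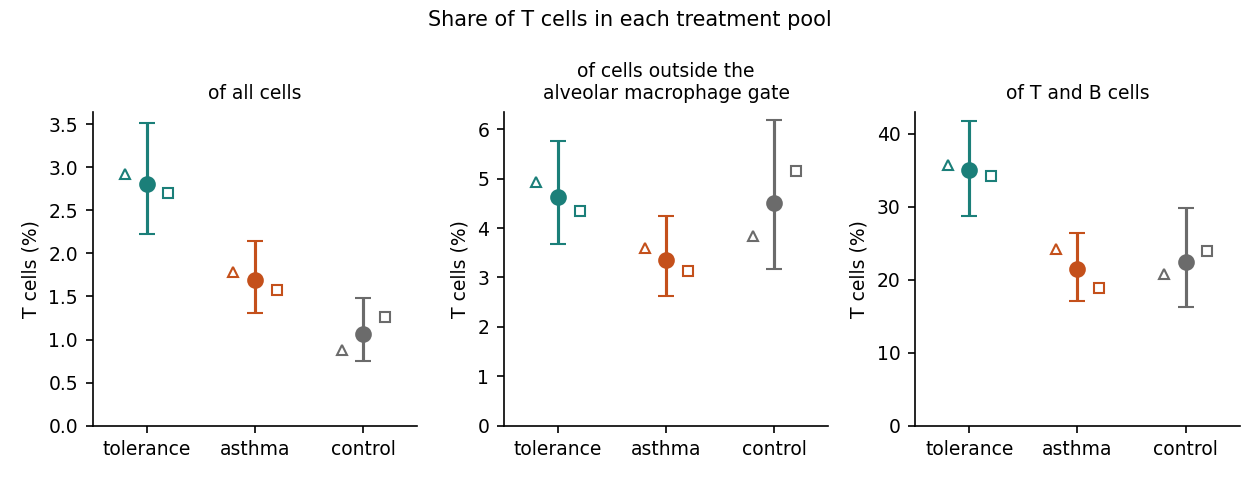
Share of T cells in percent (y axis) in the tolerance, asthma and control pools (x axis) for 3 denominators. Filled points are both lanes together with 95% exact binomial intervals, open triangles and squares are the first and the second lane. The tolerance pool is highest among all cells (2.81%) and among T and B cells (35.0%), while the intervals overlap among cells outside the alveolar macrophage gate.

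The coreceptor genes Cd4 (chromosome 6, 124864692 to 124888221), Cd8a (chromosome 6, 71373427 to 71379173) and Cd8b1 (chromosome 6, 71322788 to 71337494) were sparse. Cd4 had a UMI in 17 of 76 T cells of the tolerance pool (22.4%, 13.6 to 33.4), 14 of 68 of the asthma pool (20.6%, 11.7 to 32.1) and 5 of 36 of the control pool (13.9%, 4.67 to 29.5). Cd8a had one in 15 cells of the tolerance pool (19.7%, 11.5 to 30.5), 11 of the asthma pool (16.2%, 8.36 to 27.1) and 11 of the control pool (30.6%, 16.3 to 48.1). The intervals of all 3 pools overlapped for both genes. In B cells Cd4, Cd8a and Cd8b1 had 0 UMIs in 514 cells, which allows a share of cells with a UMI of up to 0.584%. When each cell was thinned to 1000 UMIs, which 178 T cells reached, Cd4 was seen in 9.46%, 10.3% and 5.56% of T cells in the tolerance, asthma and control pools, and Cd8a in 13.5%, 13.2% and 19.4%. Most cells with Cd4 were therefore seen only at full depth. In CPM, Cd4 had 91.8, 59.6 and 46.9 and Cd8a 153, 130.4 and 109 in the same order, while Cd8a in the 152 cells had 192, 233 and 215. The order of the pools for Cd8a differed between share and level and between the sets of cells, and no order was read.

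Cd8b1, the beta chain of the CD8 coreceptor, was the most abundant of the 3. It had 333 CPM (267 to 411) in T cells of the tolerance pool, 246 (190.2 to 313) in the asthma pool and 391 (289.9 to 515) in the control pool. In the 152 cells it had 409 (324 to 509.6), 439.7 (340.1 to 559) and 778 (571 to 1034) CPM in the same order, so that the control pool lay above the tolerance and asthma pools with intervals apart. The log2 ratio in these cells was -0.91 for tolerance over control and -0.81 for asthma over control, under a 2-fold difference. Among the 28 cells, 3 had a Cd8b1 UMI (10.7%) and 8 a Cd4 UMI (28.6%), against 55 (36.2%) and 28 (18.4%) of the 152.

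**Figure D3:**
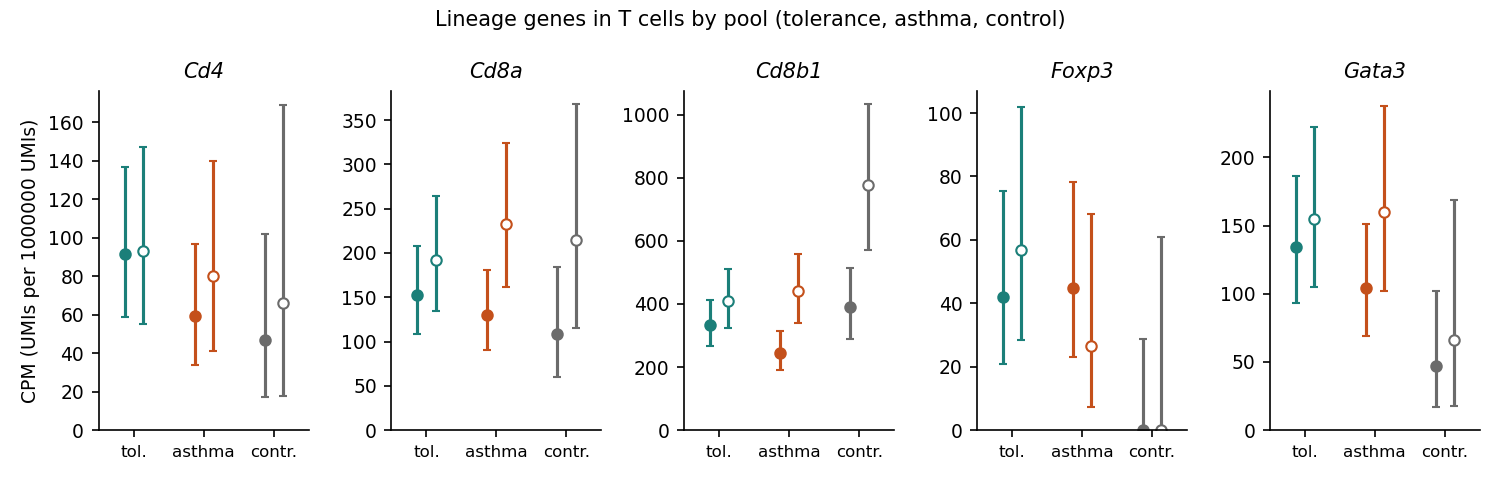
CPM (y axis) of 5 lineage genes in T cells of the tolerance, asthma and control pools (x axis, left to right), with 95% exact Poisson intervals. Filled points are all 180 T cells and open points the 152 with few MHC class II UMIs. Foxp3 is at 0 in the control pool in both sets, and Cd8b1 of the 152 cells is highest in the control pool at 778 CPM.

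By these genes, 34 T cells had Cd4 only, 62 had Cd8a or Cd8b1 only, 2 had both and 82 had neither. A cell without a UMI may still express the gene at this depth. Cells with Cd8 only were 25 of 76 (32.9%, 22.5 to 44.6) in the tolerance pool, 21 of 68 (30.9%, 20.2 to 43.3) in the asthma pool and 16 of 36 (44.4%, 27.9 to 61.9) in the control pool. Without the 28 cells they were 32.9% (22.1 to 45.1), 38.2% (25.4 to 52.3) and 55.6% (35.3 to 74.5) in the same order, with overlapping intervals. Cells with Cd4 only were fewer in every pool, with 17 in the tolerance pool, 12 in the asthma pool and 5 in the control pool. The Cd8 state was scored on Cd8a or Cd8b1, but the Cd4 state on Cd4 alone. The states are thus not alike, and no ratio of CD8 to CD4 T cells was read. By single genes, Cd4 was seen in 17, 14 and 5 T cells of the tolerance, asthma and control pools. Cd8a was seen in 15, 11 and 11 in the same order.

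The coreceptor states differed in other genes that the T cell rule did not use. Nkg7, a cytotoxic granule gene, had a UMI in 44 of the 62 Cd8-only cells (71.0%), in 4 of the 34 Cd4-only cells (11.8%) and in 9 of the 82 with neither. Dapl1, a gene of naive CD8 T cells, was seen in 53.2%, 11.8% and 17.1% of them in the same order. Foxp3 had a UMI in 6 of the 34 Cd4-only cells (17.6%), against 1 of the 62 Cd8-only cells (1.61%). Cd40lg, the CD40 ligand through which T cells help B and dendritic cells, had one in 17.6% of the Cd4-only cells, 1.61% of the Cd8-only cells and 18.3% of those with neither. Gata3 had one in 35.3%, 6.45% and 25.6% in the same order. Ccr7, the chemokine receptor for entry to lymph nodes, was seen in 71.0% of the Cd8-only cells, 17 of the 34 Cd4-only cells and 46.3% of those with neither. The cells with neither coreceptor were near the Cd4-only cells in these shares of Cd40lg, Nkg7 and Ccr7, but not in those of regulatory T cell genes. Foxp3 was seen in 6.10% of them, Ctla4 in 19.5% and Tnfrsf4 in 14.6%, against 17.6%, 38.2% and 35.3% of the Cd4-only cells. These shares are over cells of all pools and are a description.

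**Figure D4:**
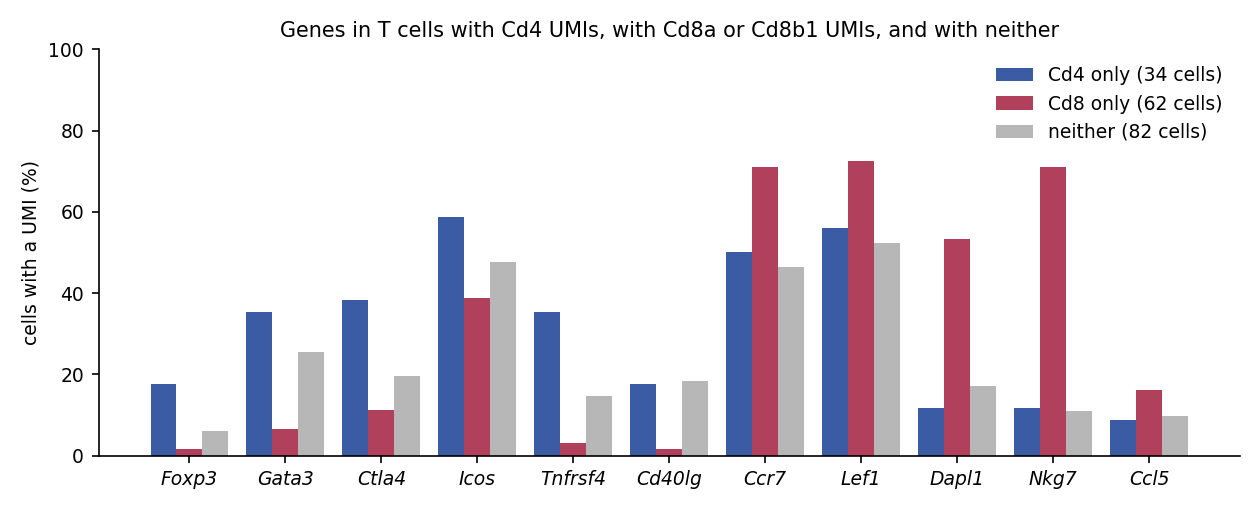
Percent of T cells with a UMI (y axis) for 11 genes (x axis) among 34 cells with Cd4 UMIs only, 62 with Cd8a or Cd8b1 UMIs only and 82 with neither, over all pools. The 2 cells with both are not drawn. Nkg7 reaches 71.0% and Dapl1 53.2% in Cd8-only cells, and Foxp3, Gata3, Ctla4 and Tnfrsf4 are lowest there.

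Foxp3 (chromosome X, 7573644 to 7595245) had 11 UMIs in 6 of 76 T cells of the tolerance pool (7.89%, 2.95 to 16.4), 12 UMIs in 6 of 68 of the asthma pool (8.82%, 3.31 to 18.2) and 0 UMIs in 36 T cells of the control pool, which allows a share of cells with a UMI of up to 8.33%. Its level was 42.1 CPM (21.0 to 75.3) in the tolerance pool and 44.7 (23.1 to 78.1) in the asthma pool, against a limit of 23.4 in the control pool. Both intervals reached below this limit, so that a difference was not detectable at this depth. Both lanes gave 3 Foxp3 cells in the tolerance and in the asthma pool and 0 in the control pool. Of the 12 Foxp3 cells, 3 of the asthma pool were among the 28, and without them the asthma pool had 4 UMIs in 3 cells. In B cells and in 5623 alveolar macrophages Foxp3 had 0 UMIs.

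The Foxp3 cells carried other transcripts of regulatory T cells. Ctla4, an inhibitory receptor, had a UMI in 12 of 12, against 24 of the 168 T cells without Foxp3 (14.3%). Il2ra, the high-affinity interleukin 2 receptor chain, had one in 8 of 12 (66.7%), against 5.95%. Tnfrsf4 and Ikzf2, the OX40 receptor gene and the gene of the transcription factor Helios, each had one in 10 of 12 (83.3%), against 9.52% and 11.9%. Cd4 was seen in 6 of 12, Cd8a in 0 and Cd8b1 in 1. Foxp3 cells were deeper, with a median of 4666 UMIs, against 2446 in T cells without it, and the part of depth in these shares was not tested.

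Gata3 (chromosome 2, 9857078 to 9890034) had 35 UMIs in 17 of 76 T cells of the tolerance pool (22.4%, 13.6 to 33.4), 28 in 15 of 68 of the asthma pool (22.1%, 12.9 to 33.8) and 6 in 5 of 36 of the control pool (13.9%, 4.67 to 29.5). The level was 134 CPM (93.3 to 186) in the tolerance pool, 104 (69.3 to 151) in the asthma pool and 46.9 (17.2 to 102) in the control pool. Its log2 ratio was 1.42 for tolerance over control and 1.07 for asthma over control, over 2-fold in both, but the intervals overlapped. In the 152 cells the level was 155 CPM in the tolerance pool, 159.9 in the asthma pool and 66.2 in the control pool. Gata3 had a UMI in 1 of 514 B cells (0.195%). Of the 37 Gata3 cells, 12 had Cd4 (32.4%), 0 had Cd8a and 6 had Foxp3.

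Type 2 cytokines were found in few cells. Il13 had 14 UMIs in 4 T cells of the tolerance pool, 4 UMIs in 1 T cell of the asthma pool and 0 in the control pool. Il4 had 6 UMIs in 3 T cells of the tolerance pool and 0 in the asthma and control pools, and Il5 had 0 in all. All 5 Il13 cells had Gata3 and Trac UMIs, 3 had the interleukin 33 receptor gene Il1rl1, and the 3 Il4 cells were among them. Il1rl1 had 53.6 CPM in the tolerance pool, 82.0 in the asthma pool and 46.9 in the control pool. Areg, the growth factor amphiregulin, had 153, 186 and 78.1 CPM in all T cells of the tolerance, asthma and control pools. It had a UMI in 13 of the 37 Gata3 cells (35.1%), against 7 of the 143 without Gata3 (4.90%). Il4 and Il13 had 0 UMIs in B cells, and among 5623 alveolar macrophages Il13 was seen in 2 cells and Il4 in 1. Group 2 innate lymphoid cells share Gata3, Il13, Il1rl1 and Areg but lack a T cell receptor. Of 10 genes of these cells, 9 had a UMI in T cells, with 639, 615 and 227 CPM summed over the list in the tolerance, asthma and control pools, and their part in these values was not tested.

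Receptor delta chain RNA was seen in 7 T cells. Trdc had 27 UMIs in 5 cells of the tolerance pool, of which 21 were in 1 cell, 1 UMI in 1 cell of the asthma pool and 6 in 1 cell of the control pool. Trac, a gene of the rule, was seen in 2 of the 7 (28.6%), against 74.6% of the other T cells, and Nkg7 in 6 of the 7 (85.7%), against 29.5%. Trbc2 was seen in 5 of the 7, Trbc1 in 4 and Gzma in 3. The single cell with Il17a, the cytokine of type 17 T cells, had Trdc, Cd163l1 and Tcrg-C1 and no Trac, the set known from interleukin 17-producing gamma delta T cells. Ncr1, an NK cell receptor gene, was seen in 2 T cells, both with Trdc and with 0 UMIs of Cd3e. Whether the Trdc cells were gamma delta T cells, other T cells or NK cells was not tested.

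Across all genes, T cells of the pools were compared by the log2 ratio of CPM, with 1 count added in proportion to library size and at least 30 UMIs over both pools. A difference of 2-fold was counted as a call. Tolerance over control gave 153 higher and 55 lower genes of 1924 (7.95% and 2.86%), asthma over control 134 and 27 of 1959 (6.84% and 1.38%), and tolerance over asthma 47 and 80 of 2668 (1.76% and 3.00%). Among the 152 cells these were 149 and 23 of 1163 (12.8% and 1.98%), 62 and 15 of 902 (6.87% and 1.66%), and 56 and 17 of 1651 (3.39% and 1.03%). In all T cells, intervals were apart for 72 and 42, 63 and 16, and 29 and 44 of the called genes in the same order. The first 2 comparisons share the control pool, which also had the fewest UMIs. A gene that reached 30 UMIs mainly through 1 pool could be called only in the direction of that pool, so the counts and medians of list members below describe the measured genes alone and are no support for a change of the list. MHC class II genes were 6 of the 55 genes lower for tolerance over control, 1 of the 27 lower for asthma over control and 6 of the 80 lower for tolerance over asthma. In the 152 cells at most 1 of them had enough UMIs to be compared and 0 were called.

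Several genes on the list of regulatory T cells were higher in the tolerance and asthma pools. Of 15 genes on the list of regulatory T cells, 6 had enough UMIs in each of the comparisons with control. For tolerance over control 6 of 6 were over 2-fold higher (median log2 ratio 1.84, against 0.11 over all genes), and for asthma over control 4 of 6 were (1.26, against 0.13). In the 152 cells these were 6 of 6 (1.98, against 0.07) and 4 of 4 (1.70, against 0.03). Ctla4 had 298 CPM in the tolerance pool, 238 in the asthma pool and 31.3 in the control pool, with log2 ratios of 3.06 and 2.75 over control. In the control pool Ctla4 and Ikzf2 had 4 UMIs each and Tnfrsf4 had 6, so these genes reached 30 UMIs through the other pool. Icos, a costimulatory receptor of activated T cells, had 348, 265 and 117 CPM in the same order, and Ikzf2 had 179.8, 190.0 and 31.3. The intervals of the tolerance and asthma pools were apart from that of the control pool for these 3 genes, in all T cells and in the 152. Tnfrsf4 had 214, 130.4 and 46.9 CPM, and its intervals were apart for tolerance over control but not for asthma over control. Between tolerance and asthma 1 of 8 measured list genes was called, Capg, an actin-capping protein, with 318 CPM in the tolerance pool and 153 in the asthma pool. Capg was under 2-fold in the 152 cells, with 331 against 199.9 CPM, and 2 of 7 were called, Tnfrsf4 with 254 CPM in the tolerance pool and 119.9 in the asthma pool and Tnfrsf18 with 238 and 113, neither with intervals apart.

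Some genes known from memory and effector T cells were also higher in these pools. Of 19 genes on that list, 6 of 17 measured were over 2-fold higher for tolerance over control (median log2 ratio 0.88) and 5 of 16 for asthma over control (0.69), with 0 lower in either. Within the 152, 12 of 15 were higher for tolerance over control (1.74) and 1 was lower, the integrin gene Itga4. For asthma over control 8 of 11 were higher (1.33). Over all genes in these cells, 12.8% and 6.87% were higher in the 2 comparisons. In the control pool of the 152, Anxa2 had 3 UMIs, Rgs1 and Cxcr6 4 each and S100a4 7. For tolerance over control these genes thus passed the minimum of UMIs mainly through the tolerance pool. Many of these genes are also transcribed in dendritic cells, so values of the 152 cells are given. Lgals1, the lectin galectin 1, had 1817 CPM (1632 to 2017) in the tolerance pool, 1113 (950.3 to 1295) in the asthma pool and 199 (103 to 347) in the control pool. S100a4, a calcium-binding protein of memory T cells, had 994 (858 to 1145), 306 (224 to 409) and 116 (46.6 to 239) CPM in the same order. Both were highest in the tolerance pool with intervals apart from the asthma pool, but in all T cells the S100a4 intervals of these pools overlapped. Itgb1, the integrin beta 1 chain, had 39 UMIs in 24 of 70 cells of the tolerance pool, 46 in 15 of 55 of the asthma pool and 0 in 27 of the control pool. Its level was at least 4.07-fold higher in the tolerance pool and at least 6.17-fold higher in the asthma pool than a limit of 3 counts in the control pool.

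Tolerance and asthma differed in a few of these genes. Cd44, an adhesion receptor of antigen-experienced T cells, had 55 UMIs in 27 of 70 cells of the tolerance pool and 8 UMIs in 8 of 55 cells of the asthma pool, a log2 ratio of 2.30 in the 152 cells and of 1.04 in all T cells. The control pool also had 8 Cd44 UMIs in the 152 cells, or 132 CPM, against 53.3 in the asthma pool. In all T cells Cd44 had 279, 134 and 211 CPM in the tolerance, asthma and control pools, so the asthma pool was lowest. Cxcr6, a chemokine receptor of T cells that reside in lung, had 51 UMIs in 16 T cells of the tolerance pool, 18 in 9 of the asthma pool and 4 in 1 of the control pool. Its log2 ratio was 1.49 for tolerance over asthma in all T cells and 0.92 in the 152. Of the 26 Cxcr6 cells, 6 had Ccr7 (23.1%), against 61.0% of the others. Rgs1, a regulator of chemokine signalling, had 459 CPM in the tolerance pool, 168 in the asthma pool and 54.7 in the control pool.

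Genes of naive and recirculating T cells lay the other way. Of 15 such genes, 14 were measured in every comparison, and for tolerance over control their median log2 ratio was -0.40 in all T cells and -0.60 in the 152. For asthma over control it was -0.15 and -0.36. Few members reached 2-fold. In all T cells Actn1 was lower for tolerance over control, and in the 152 cells Lef1 and Ccr7 were lower for tolerance over control and Ccr7 for asthma over control. Ccr7 had a UMI in 33 of 70 of these cells in the tolerance pool (47.1%), 26 of 55 in the asthma pool (47.3%) and 24 of 27 in the control pool (88.9%), and its levels were 409, 406 and 844 CPM. Lef1, a transcription factor of naive T cells, had 367, 453 and 778 CPM in the same order. Il7r, the interleukin 7 receptor, had 601, 581 and 602 in all T cells, without a difference beyond the intervals.

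Interferon-responsive genes included several that were higher in both OVA-treated pools. Of 25 list genes, 10 of 15 measured were over 2-fold higher for tolerance over control and 9 of 15 for asthma over control. The median log2 ratio was 1.26 in each, and intervals were apart for 6 of the called genes in each. In the 152 cells the counts were 7 of 13 (1.31) and 4 of 9 (0.66), with intervals apart for 5 and 2. In the control pool Gbp2 had 4 UMIs, Zbp1 6 and Igtp 7, so these genes passed the minimum of UMIs mainly through the other pool. Ifi27l2a had 1737 CPM (1581 to 1904) in the tolerance pool, 1263 (1132 to 1405) in the asthma pool and 179.7 (114 to 269.6) in the control pool, and was seen in 43, 43 and 13 T cells. Ly6a, the Sca-1 surface protein gene, had 746, 306 and 62.5 CPM in the same order. Ifit1, an antiviral gene, had 41 UMIs in 8 T cells of the tolerance pool, 21 in 10 of the asthma pool and 3 in 2 of the control pool, and 15 of the 41 were in 1 cell. Its level in the 152 cells was 212 CPM in the tolerance pool, 40.0 in the asthma pool and 33.1 in the control pool, so that the asthma and control intervals overlapped. Ly6e, also on the list, had 742, 701 and 523 CPM, under 2-fold in every comparison.

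**Figure D5:**
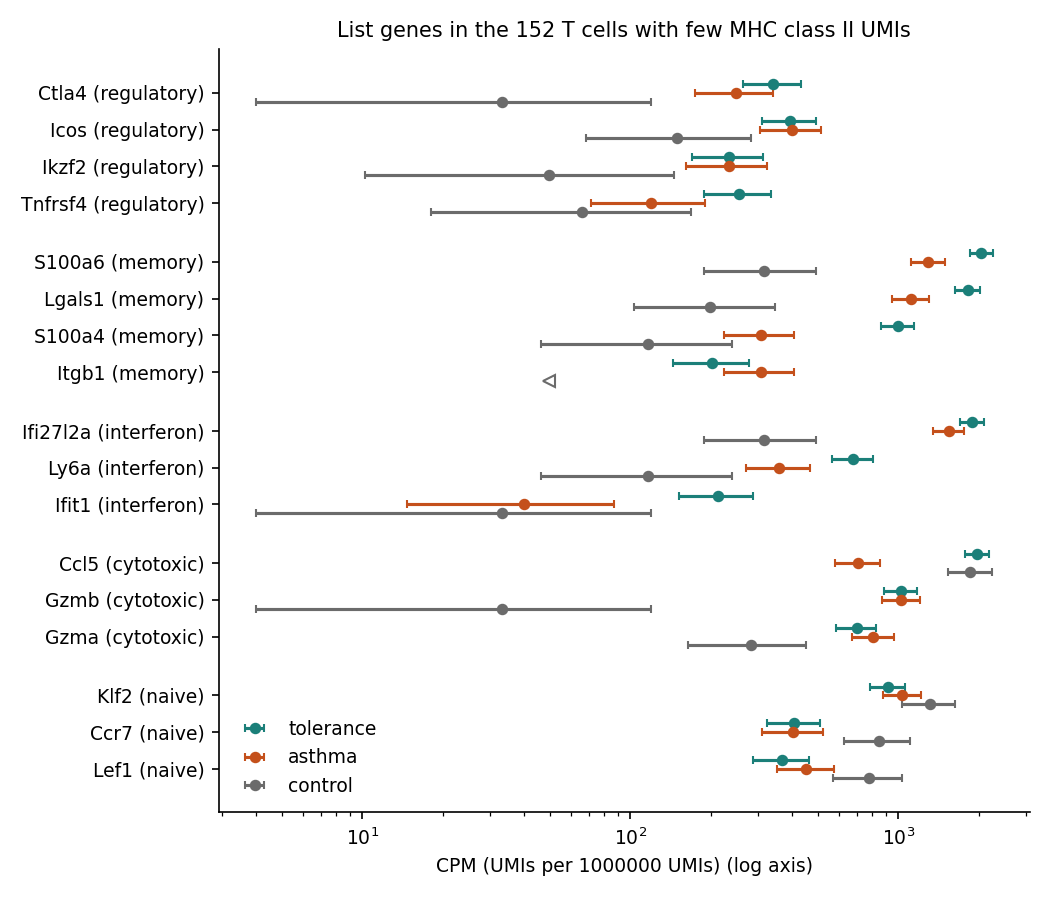
CPM (x axis, log axis) of 17 list genes in the 152 T cells with few MHC class II UMIs, with 95% exact Poisson intervals, for the tolerance, asthma and control pools (top to bottom within a gene). The open triangle marks the limit of 3 counts for Itgb1, which had 0 UMIs in the control pool. Regulatory, memory and interferon genes lie to the right in the tolerance and asthma pools, and Ccr7 and Lef1 in the control pool. For Tnfrsf4, S100a4 and Ifit1 the intervals of the asthma and control pools overlap.

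The UMIs of cytotoxic genes were often concentrated in 1 cell of a pool. Gzmb, the protease granzyme B, had 197 UMIs in 7 T cells of the tolerance pool, 154 in 6 of the asthma pool and 2 in 1 of the control pool, but 146 of the 197 and 125 of the 154 were in 1 cell each. The level of Gzmb in the tolerance and asthma pools was thus mainly that of 1 cell each. Gzma, granzyme A, had 135 UMIs in 5 T cells of the tolerance pool, 122 in 2 of the asthma pool and 17 in 1 of the control pool, and 121 of the 122 were in 1 cell. Without the top cell of each pool, 0 Gzma UMIs were left in the control pool. Ccl5, a chemokine of effector CD8 T cells, had 380 UMIs in 11 T cells of the tolerance pool, 114 in 9 of the asthma pool and 112 in 1 of the control pool. Its UMI level and the share of cells that hold it therefore order the pools differently. Prf1, perforin, had 32 UMIs in 6 T cells of the tolerance pool, of which 19 were in 1 cell, 0 in the asthma pool and 2 in the control pool.

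Cell division genes were found in few T cells. Mki67 had a UMI in 6 T cells of the tolerance pool, 2 of the asthma pool and 4 of the control pool, and 7 of these 12 were among the 28 class II-rich cells. Top2a had 33 UMIs in 6 cells of the tolerance pool 5 in 1 cell of the asthma pool and 8 in 2 cells of the control pool. Of 14 list genes, 1 of 7 measured was over 2-fold higher for tolerance over control in all T cells, but 6 of 7 in the 152, where H2afz had 1123 CPM in the tolerance pool, 933 in the asthma pool and 331 in the control pool. Within the 152 cells Mki67 had 33 UMIs in the tolerance pool and 0 in the control pool, Top2a 32 and 0, Stmn1 53 and 1, and Tuba1b 30 and 4, so these 4 passed the minimum mainly through the tolerance pool. Of the 707 UMIs of the list there, 221, 91 and 83 were in 3 of the 70 cells, and 134 of the 325 in all T cells of the control pool were in 1 class II-rich cell. The counts on this list thus rested on a few cells. Immediate early genes gave 4 of 15 lower and 0 higher for tolerance over control. Over all genes 2.86% were lower and 7.95% higher in this comparison, and 1.98% and 12.8% in the 152. Among the 152, 0 of 13 immediate early genes were lower and 1 was higher. This was Dusp1, a phosphatase gene, with 326 CPM in the tolerance pool and 132 in the control pool. Egr1 there had too few UMIs to be compared with control. In all T cells Egr1 had 72.7 CPM in the tolerance pool, 145 in the asthma pool and 414 in the control pool, with 53 UMIs in 9 cells of the control pool.

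T cell receptor and signalling genes gave 2 of 21 higher for tolerance over control (median log2 ratio 0.21) and 2 of 20 for asthma over control (0.19), with 0 lower. Trat1, a receptor-associated adaptor, had 28 UMIs in 15 T cells of the tolerance pool, 31 in 22 of the asthma pool and 2 in 2 of the control pool. Cd5, a receptor that dampens T cell receptor signals, had 218, 119 and 70.3 CPM in the tolerance, asthma and control pools. For tolerance over control and asthma over control, coreceptors and lineage regulators gave 0 of 6 and 1 of 5 calls (Runx1). Cytokine receptors gave 2 of 8 and 1 of 7, and chemokine receptors 2 of 6 and 0 of 4. Over all genes 7.95% and 6.84% were higher in these comparisons, and no change of these lists was read. Maf, a transcription factor on the list of type 17 and gamma delta T cells, had 38 UMIs in 10 T cells of the tolerance pool, 15 in 10 of the asthma pool and 1 in 1 of the control pool.

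Outside the lists, Ctla2a, a cysteine protease inhibitor, was furthest apart for tolerance over control in both sets of cells. It had 81 UMIs in 15 T cells of the tolerance pool, 44 in the asthma pool and 1 in the control pool, or 309.9 (246 to 385), 164 (119 to 220.1) and 7.81 (0.198 to 43.5) CPM. Odc1, the first enzyme of polyamine synthesis, had 113 UMIs in 35 T cells of the tolerance pool, 65 in the asthma pool and 11 in 7 of the control pool. Rrad, a small GTPase gene, had 54 UMIs in 23 T cells of the tolerance pool, 28 in the asthma pool and 6 in 6 of the control pool, and it was also among the genes furthest apart in the 152. Txnip, which binds thioredoxin and limits glucose uptake, was lower in both OVA-treated pools. It had 145 CPM in the tolerance pool, 119 in the asthma pool and 328 in the control pool, and log2 ratios of -1.49 and -1.59 over control in the 152 cells. Several genes that were far apart in all T cells are known from dendritic cells. Cst3, cystatin C, had 1056, 2005 and 6571 CPM in the tolerance, asthma and control pools in all T cells, but 160.5, 167 and 314 in the 152. Cd209d had 8 UMIs in 2 T cells of the tolerance pool, 85 in 6 of the asthma pool and 2 in 2 of the control pool, and had too few UMIs in the 152 to be compared. Between tolerance and asthma, Cmtm7 and Uhrf2 were over 2-fold higher in the tolerance pool in both sets, with log2 ratios of 1.17 and 1.09 in the 152.

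T cells were compared with B cells across pools, which gives 3 pairs of summed counts. The T cells had 127992 to 268356 UMIs per pool and the B cells 332491 to 637923. edgeR's quasi-likelihood test with the pool as a block and Benjamini-Hochberg adjustment called 462 genes higher and 491 lower in T cells of 4221 (10.9% and 11.6%). Both classes were gated on their own transcripts, so genes that accompany the gating genes differ by that choice. Without the 28 cells 361 were higher and 464 lower, and DESeq2 with all T cells called 181 and 205. Of 22 receptor and signalling genes, which do not include the 4 of the rule, 19 of 20 measured were higher. Trbc2 had 641 UMIs in T cells, against 1 in B cells (log2 fold change 9.75, SE 0.37, adjusted p = 1.67e-24 with edgeR), and was higher in 3 of 3 pools. Cd28, the main costimulatory receptor of T cells, had 93, 85 and 42 UMIs in T cells of the tolerance, asthma and control pools and 0 in B cells, at least 154-fold higher than a limit of 3 counts over all B cells. Thy1, a surface protein of mouse T cells, had 217 UMIs against 0 (at least 152-fold) and Tcf7, a transcription factor of naive and memory T cells, 196 against 0 (at least 137-fold). Nkg7 was as marked, with 268 against 0 (at least 187-fold).

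Genes lower in T cells included defining genes of B cells. Ms4a1, the CD20 gene, had 0 UMIs in T cells, against 1691 in B cells (at least 269-fold lower in T cells), Ebf1 0 against 1600 (at least 254-fold lower) and Ly6d 1 against 2516. Naive T cell genes were split, with 8 of 15 higher and 5 lower. Chemokine receptors gave 1 of 7 higher and 4 lower. Immediate early genes gave 2 of 16 higher and 3 lower. Over all genes 10.9% were higher and 11.6% lower, and no change of the immediate early genes was read.

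Against NK cells only the tolerance and asthma pools had at least 10 cells of each class, which left 1 residual degree of freedom. edgeR's test called 120 genes higher and 58 lower in T cells of 2813 (4.27% and 2.06%), while DESeq2 called 7 and 4. Without the 28 class II-rich T cells and with all NK cells kept, edgeR called 263 and 221 of 1930, so the count varied widely with the setting. Costimulatory and checkpoint receptors were higher in T cells for 7 of 9 measured, and cytotoxic genes were lower for 8 of 13. Icos had 91 and 71 UMIs in T cells of the tolerance and asthma pools, against 0 in NK cells, at least 11.7-fold higher than a limit of 3 counts over the NK cells. Lef1 had 165 UMIs against 0 (at least 11.9-fold) and Bcl11b, a transcription factor that keeps T cell identity, 159 against 0 (at least 11.5-fold). The NK cells had been gated on Ncr1, Klrb1c and Klre1 and on fewer than 2 UMIs of the T cell genes, so genes that accompany these differ by that choice, and 11 of 30 NK cells (36.7%) had a Trbc1 or Trbc2 UMI. Klra3, Klra4 and Klra8, inhibitory and activating receptors of NK cells, had 0 UMIs in T cells, against 20, 18 and 17 in NK cells. MHC class II genes were lower in T cells for 5 of 8. The median class II UMIs per cell were 1.00 in T cells of both pools, against 208 in NK cells of the tolerance pool and 0 in NK cells of the asthma pool, and their part in the other calls was not tested.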

How the data were processed

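The authors aligned reads to mm10 with STAR in Cell Ranger 3.1.0, counted UMIs per gene and barcode, and assigned barcodes to pools by hashtag in Seurat 3.1.5. The deposited UMI counts of 6 matrices (3 pools on 2 lanes, 31053 genes and 4 antibody tags) were used unscaled, and cells were classed here by their own genes. Cells were kept with at most 20% mitochondrial UMIs, at most 20000 UMIs and at least 500 genes. Doublets were kept in the main values, because Scrublet's own cutoff took out 0.0585% of one lane and 0.121% of the other, too few to have worked, and the top 2% of its scores were left out as an alternative. B cells had at least 2 Cd79a UMIs and 0 of Cd3d, Cd3e, Cd3g and Trac, and NK cells had at least 2 UMIs of Ncr1, Klrb1c and Klre1, 0 of Cd79a and fewer than 2 of those T cell genes.

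UMIs were summed per pool and class in Python 3.11.15 (scanpy 1.11.5, numpy 2.4.6, scipy 1.17.1, pandas 2.3.3) and compared between classes by edgeR 4.0.16 under R 4.3.3 (TMM, the pool as a block, adjusted p under 0.05), with DESeq2 1.42.0 as an alternative. These scripts were tested on simulated data. With the pool as a block, the 3 pools for B cells left 2 residual degrees of freedom and the 2 for NK cells left 1. edgeR's p-values rest on how the class difference varied over these pools of mice and on dispersion estimates shared over genes. Each pool had another treatment, so they measure no spread between replicate pools. CPM are UMIs of a gene per 1000000 UMIs of the class in a pool. Figures were drawn with matplotlib 3.10.9. Coordinates are from GENCODE on GRCm38 (mm10), which held 30934 of the 31053 gene identifiers.

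The members, the 25 gene lists and the tests were chosen with earlier results of these data known. Genes were named by rule: from each list up to 5 with the most UMIs and up to 3 per direction and comparison with the largest log2 ratio of at least 2-fold, outside the lists up to 8 per direction with at least 50 UMIs, intervals apart and the same direction in both lanes, and for the class tests up to 6 per direction. Ribosomal, mitochondrial, immunoglobulin and predicted genes were not named. Which of these were described was chosen after their values were seen. Values of some list genes are not reported here.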

Additional observations from a re-analysis of the deposited data

How the results depend on the processing

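A minimum of 1200 genes per cell lowered the T cell share to 1.02% in the tolerance pool, 0.924% in the asthma pool and 0.372% in the control pool. In the cells left, Foxp3 was seen in 17.4% in the tolerance and 20% in the asthma pool, Gata3 in 39.1% and 40.0%, and Cd8a in 9.09% in the control pool. Thinned to 1000 UMIs, Cd4 was seen in 9.46% in the tolerance and 10.3% in the asthma pool, and Gata3 in 12.2% and 7.35%. With a minimum of 10 UMIs, 613 genes were 2-fold higher and 324 lower for tolerance over control, 579 and 267 for asthma over control, and 353 and 338 for tolerance over asthma. With a minimum of 60 UMIs these were 48 and 23, 52 and 7, and 17 and 27. Without the 28 class II-rich cells, chosen after seeing the data, 23 were lower for tolerance over control, 62 higher and 15 lower for asthma over control, and 17 lower for tolerance over asthma. DESeq2 called 181 genes higher and 205 lower than B cells and 7 and 4 against NK cells, and without the top Scrublet scores 29 and 9 differed from NK cells. Without the 28 T cells alone, also chosen after seeing the data, 263 were higher and 221 lower than NK cells. The cause of these moves was not tested, beyond the fewer cells and UMIs that some settings leave.

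Each lane left out in turn gave 160 to 270 genes higher and 205 to 303 lower than B cells. It gave 70 to 75 higher and 30 to 36 lower for tolerance over control, 58 to 96 higher and 18 to 28 lower for asthma over control, and 41 to 49 higher and 21 to 77 lower for tolerance over asthma. With each pool left out, 308 to 554 were higher and 332 to 574 lower than B cells. Without a lane, or without the class II-rich cells of both T and NK cells, fewer than 2 pools kept 10 cells of each class, so the NK comparison was not run, and without a pool only 1 pair was left. No paired analysis was possible between treatments because each had 1 pool and the lanes are technical. With 36 T cells, the control pool limits every share and every gene near 0.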
